A study of Mus musculus with 13 samples.

Results

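The enzymes that build cholesterol and fatty acids, with the proteins that control them, were described as a set of 31 genes in plasma cells of the mouse bone marrow. The members were named by pathway, with earlier results of these data known. All 31 of them were among the 22997 gene symbols of the count table, and each had at least 10 counts in at least 2 of the 13 libraries. Bulk RNA sequencing was run on 50000 sorted cells per library, taken as CD138+ B220- CD45.2+ bone marrow cells from mice of C57/BL6 background. WT was 3 libraries of wild-type plasma cells. V was 3 libraries from mice with the genotype Vκ*MYC; IgG1-Cre, in which a human MYC transgene is activated in germinal centre B cells and Cre is made from the IgG1 heavy chain locus. VQ added the allele Nras LSL Q61R/+, a mutant Nras that Cre releases from a stop cassette, and came from recipients of 3 transplanted lines, with 2 recipients of line D1, 1 of D4 and 2 of D5. The arm tVk12653 held 2 libraries of donor-derived cells from recipients of the tVk12653 tumour, a single line. Only the VQ and tVk12653 cells had grown in a transplant host, so tumour genotype and transplantation cannot be told apart here. The labels number the libraries of a group without saying that each is another animal, so the p-values measure the spread between these libraries.

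Cholesterol is made from acetyl-CoA through mevalonate and isoprenoid units to squalene, which is closed into a ring and trimmed to cholesterol. Fatty acids start from the same acetyl-CoA, which is carboxylated, built into palmitate, elongated and given double bonds by desaturases. Both branches are transcribed under SREBP factors, membrane proteins that SCAP escorts out of the endoplasmic reticulum when sterols are low and that INSIG proteins hold back when sterols are high. Plasma cells carry an expanded endoplasmic reticulum and need membrane lipid for it.

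The stretches upstream of 4 members are printed because these genes stand for the mevalonate, sterol-binding and fatty acid parts of the set and each passed the test in at least 1 comparison. Each is the 250 bases before a start annotated by RefSeq for build GRCm38.p6, on the gene's own strand, 5′ to 3′. The start used for Fasn lies inside the RefSeq span of the gene (120805958 to 120825166 on chromosome 11), which reaches farther upstream. Capitals mark matches, on either strand, to the sterol element TCACNCCAC, to CCAAT (read as ATTGG on the other strand) or to the E-box CACGTG.
Hmgcs1, chr13:119690101-119690350, plus strand: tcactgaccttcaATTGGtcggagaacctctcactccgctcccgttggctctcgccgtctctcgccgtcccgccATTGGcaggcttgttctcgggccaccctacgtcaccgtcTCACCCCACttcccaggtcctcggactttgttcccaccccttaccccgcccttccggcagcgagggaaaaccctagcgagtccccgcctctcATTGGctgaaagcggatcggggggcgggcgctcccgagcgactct
Tmem97, chr11:78550736-78550985, minus strand: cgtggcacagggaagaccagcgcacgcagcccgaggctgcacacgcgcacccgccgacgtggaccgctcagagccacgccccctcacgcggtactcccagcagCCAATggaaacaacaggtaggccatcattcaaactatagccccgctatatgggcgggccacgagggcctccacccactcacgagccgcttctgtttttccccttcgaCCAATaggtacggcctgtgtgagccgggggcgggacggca
Fasn, chr11:120824548-120824797, minus strand: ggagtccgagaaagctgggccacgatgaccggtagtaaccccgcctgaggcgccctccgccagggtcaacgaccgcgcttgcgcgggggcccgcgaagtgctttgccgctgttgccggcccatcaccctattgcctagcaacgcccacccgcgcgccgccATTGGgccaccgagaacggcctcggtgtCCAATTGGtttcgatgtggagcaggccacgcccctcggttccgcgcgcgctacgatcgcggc
Elovl6, chr3:129532136-129532385, plus strand: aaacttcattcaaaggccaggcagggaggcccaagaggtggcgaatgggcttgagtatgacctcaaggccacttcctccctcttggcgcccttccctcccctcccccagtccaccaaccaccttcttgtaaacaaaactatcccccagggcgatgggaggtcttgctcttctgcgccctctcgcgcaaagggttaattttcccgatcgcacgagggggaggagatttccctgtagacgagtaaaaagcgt

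Hmgcs1 held the sterol element 137 bases before its start, between CCAAT matches at 176 and 45 bases and beyond another at 237. Tmem97 had CCAAT at 147 and 40 bases. Fasn had CCAAT at 90, 62 and 59 bases, and its last 2 matches overlap as the palindrome CCAATTGG. In the Elovl6 window none of the 3 motifs was found, which says only that these letters are not there. RefSeq upstream windows were matched for 24 of the 31 members. CCAAT was found in 18 of these 24 members (75.0%) and in 37.5% of all 27025 genes with such a window. The E-box was found in 5 of the 24 members (20.8%) against 6.86% of all genes, and the sterol element in 1 member, Hmgcs1 (4.2%), against 1.22%. These matches describe the sequence alone and were not compared with the expression values.

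Total counts per library lay between 2096815 and 8512281. The 31 members together took 0.131 to 0.153% of the counts in the WT and V libraries and 0.204 to 0.314% in the libraries of transplanted tumours, and these ranges did not overlap. Plasma cell markers were present in every library. The joining chain gene Jchain alone stood at 32910 to 64710 CPM (counts after scaling of each library) for WT, 34570 to 55170 for V and 45.0 to 6707 in the tumours. The other 7 plasma cell markers summed to 5079 to 8364 CPM for WT, 7727 to 8592 for V, 6009 to 6508 for D1, 9166 for D4, 4679 to 5175 for D5 and 6675 to 6879 for tVk12653. These sums hide lower single markers. Mzb1 was at 0.568 CPM in D4, 6.71 and 7.21 in tVk12653 and 129 to 387 in D1 and D5, beside 269 to 559 in WT and V. Tnfrsf17 was at 2.87 to 83.8 CPM in the tumours, beside 81.4 to 146.8 in WT and V. Xbp1, Irf4 and Pou2af1 each stood at 623.6 CPM or more in every library. Markers of other cells differed between the groups in several ways. The 10 neutrophil markers summed to 3334 to 9142 CPM for WT, 1818 to 3637 for V, 366 to 1247 for D1 and 72.1 to 156 in the other tumour libraries, with no marker at 0 in any group. The 10 monocyte and macrophage markers summed to 21.6 to 44.6 CPM in D5 and 522.9 to 1658 CPM in the other libraries. In D4 and tVk12653 this sum was mostly Ly6c2 (1557 CPM for D4, 878 and 1191 for tVk12653) and Cd68 (88.6, 108 and 163). Lyz2 was low there as in D5, at 4.40 CPM for D4 and 7.17 and 3.97 for tVk12653, beside 171.7 to 1307 in WT and V. The 9 markers of stroma and adipocytes summed to 34.2 to 71.2 CPM for WT, 6.69 to 16.2 for V, 10.2 to 41.2 for D1, 34.9 for D4, 5.07 to 5.90 for D5 and 10.2 to 10.8 for tVk12653. Among them Adipoq, Plin1 and Cfd were at 1.04 CPM or less in every library. In bulk RNA, fewer cells of a type and less RNA per cell cannot be told apart. The part of these cells in the results below was not tested.

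**Figure D1:**
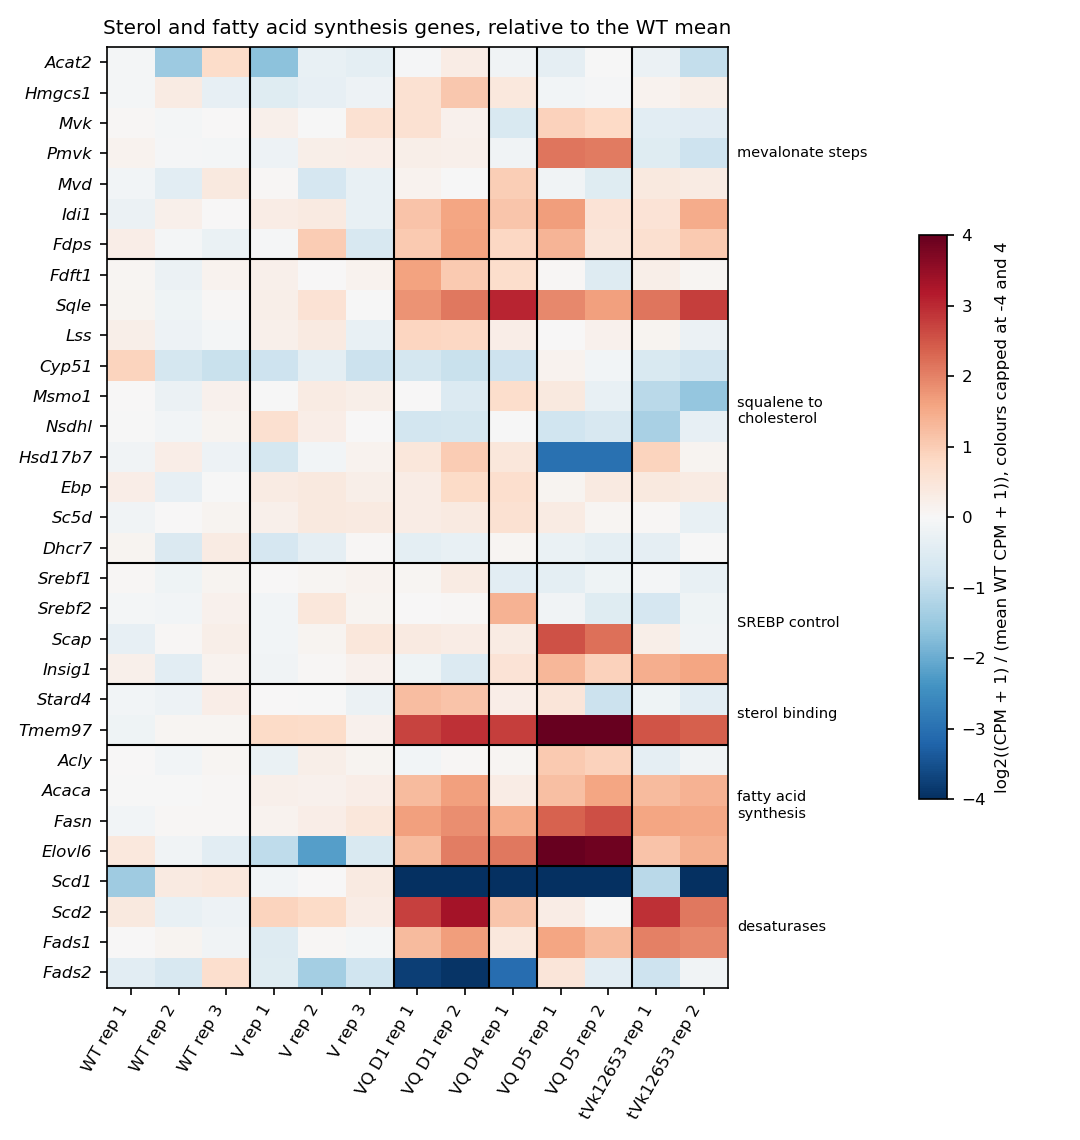
Each row is a member and each column a library; colour gives log2 of (CPM + 1) over (mean WT CPM + 1), with colours capped at -4 and 4 and horizontal lines between roles. Sqle, Tmem97, Fasn and Elovl6 are above the WT mean in all 7 tumour libraries, Scd1 is below it in all 7, and Fads2 is far below it only in D1 and D4.

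Levels can be compared between genes only per exon length, here as TPM (counts scaled for exon length and library size), averaged over a group. In WT plasma cells the highest TPM among the members were those of Srebf2 (96.9), the SREBP factor of the sterol branch, Acly (82.0), which makes acetyl-CoA from citrate, and Ebp (57.6), a sterol isomerase. Scd2 (50.1), Insig1 (48.55) and Scd1 (47.4) followed; the Scd genes put the first double bond into saturated fatty acids. The order differed in the tumours. In D1 the highest were Scd2 (489 TPM), Fasn (134), the fatty acid synthase, and Srebf2 (116). In D5 they were Scap (232), Fasn (198) and Acly (173), and in tVk12653 Scd2 (301), Insig1 (138) and Fasn (98.5). The lowest member in WT was Idi1 (1.11 TPM), the isomerase of the isoprenoid unit, with 191 counts over all libraries.

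V against WT compares plasma cells with the MYC transgene with normal ones outside a transplant. Fasn stood at 161, 177 and 199 CPM in V beside 136, 149.7 and 150.1 CPM in WT, a log2 fold change of 0.30 ± 0.24 (standard error). Elovl6, which elongates palmitate, stood at 2.93, 0.704 and 4.22 CPM for V and 9.70, 6.15 and 4.85 CPM for WT (-1.38 ± 0.76). The libraries of the groups did not overlap for 5 of the 31 members, Fasn, Elovl6, Tmem97, Acaca and Sc5d, beside 18.3% of all genes (9.65% higher and 8.64% lower in V). None of the 31 passed. With edgeR's quasi-likelihood test and Benjamini-Hochberg adjustment over 11933 genes, 0 members and 0.00% of all genes were called; 0 members had an unadjusted p under 0.05, and DESeq2 called 0 members. The members' median log2 fold change was 0.13, and that of all genes tested 0.01. The labels do not say what the library number marks. With the number as a block, fitted on the 6 libraries of WT and V, 4.56% of 10510 genes were called. Among the members that fit called Scd2 higher in V (0.69 ± 0.13, adjusted p = 0.0132, edgeR), at 217, 201 and 142 CPM for V and 154, 95.1 and 101 CPM for WT. The block fitted over all 13 libraries did not call it (0.67 ± 0.23, adjusted p = 0.230). The fit on 6 libraries did not test 4 members of low counts, Acat2, Idi1, Fdps and Tmem97.

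Against WT, the transplanted tumours showed higher RNA of a part of each branch. In VQ, tested over its 3 lines, 9 members were higher and 1 lower (32.3% of 31), where 32.4% of all genes were called, 17.3% higher and 15.1% lower. In tVk12653, 7 were higher and 1 lower (25.8%), where 28.2% of all genes were called, 12.6% higher and 15.7% lower. In both directions together the share of members called was near that of all genes. By direction, 29% of the members were higher in VQ and 22.6% in tVk12653, above the shares of all genes, and 3.23% were lower in each, below them; no test of the set was made. The median log2 fold change of the members was 0.56 in VQ against 0.08 for all genes, and 0.06 in tVk12653 against -0.05. Both comparisons use the same WT libraries, so their values are set side by side below without a measure of likeness. Called in VQ and kept under every alternative were Sqle, Tmem97, Fasn, Elovl6 and Scd1. The calls of Ebp, Idi1 and Scd2 were lost under several alternatives, and the higher count fell to 5 without WT replicate 3. In tVk12653 the calls of Sqle, Tmem97, Fasn and Fads1 were kept under every alternative, and without either of its libraries the higher count was 4 and the lower count 0.

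**Figure D2:**
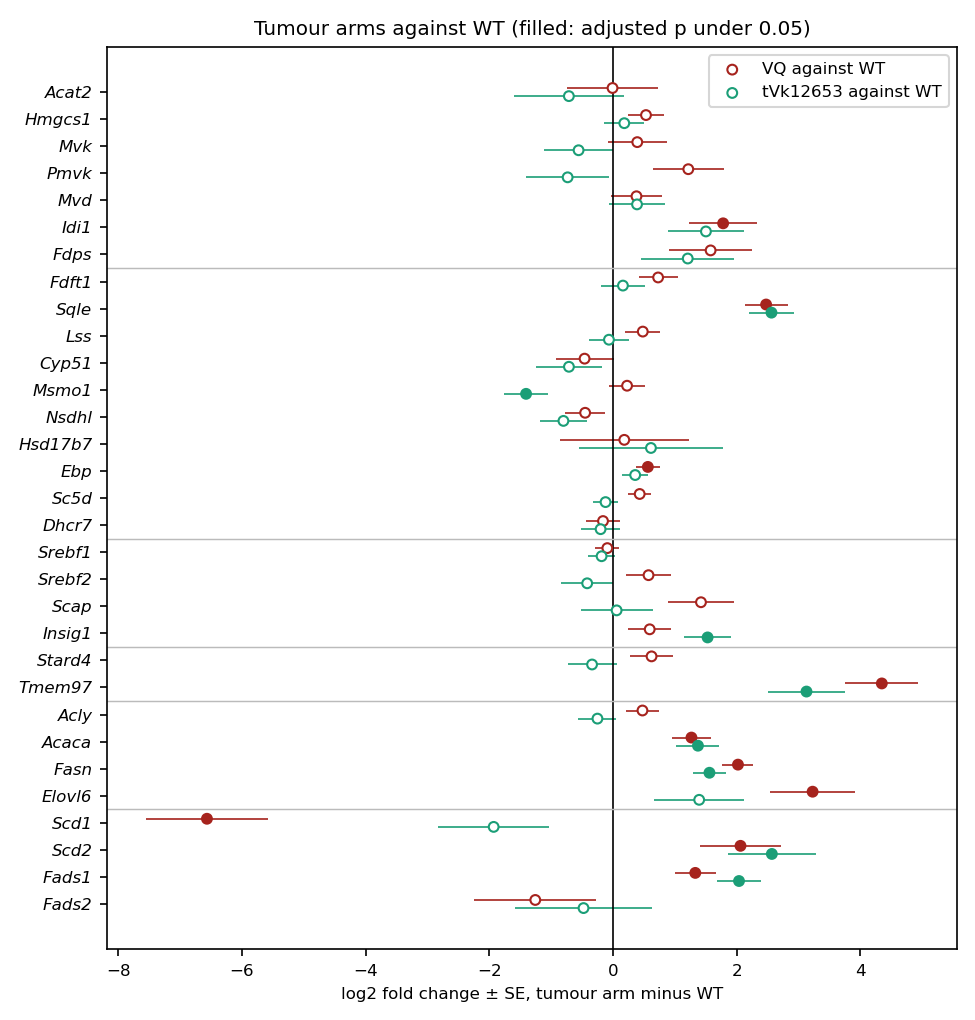
Log2 fold change (x axis) ± standard error of each member in VQ (red) and tVk12653 (green) against the same 3 WT libraries; filled points had an adjusted p under 0.05. Tmem97 lies farthest to the right in both, and Scd1 in VQ lies farthest to the left at -6.57.

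The mevalonate steps run from acetyl-CoA to farnesyl diphosphate through Acat2, Hmgcs1, Mvk, Pmvk, Mvd, Idi1 and Fdps. Their summed level was 55.4 to 56.8 CPM for WT, 46.0 to 54.2 for V, 76.6 to 104 in the VQ libraries and 59.7 to 62.0 for tVk12653. Of the 7 genes, 1 rose in VQ (14.3%, beside 17.3% of all genes) and 0 in tVk12653 (beside 12.6%). Idi1 stood at 1.04, 1.81 and 1.43 CPM for WT, 1.96, 2.11 and 0.973 for V, 4.31 and 6.29 for D1, 4.26 for D4, 6.67 and 2.56 for D5, and 2.55 and 5.77 for tVk12653. Every tumour library lay above every WT and V library, at low counts. The VQ change was 1.78 ± 0.55 (adjusted p = 0.0328, edgeR), and it did not pass without WT replicate 1 (adjusted p = 0.109), WT replicate 2 (0.0599), WT replicate 3 (0.101), D5 replicate 1 (0.0679) or line D1 (0.0672). In tVk12653 it was 1.50 ± 0.61 (adjusted p = 0.0927).

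Hmgcs1 joins acetoacetyl-CoA and acetyl-CoA into HMG-CoA. Its level was 23.9, 31.5 and 19.98 CPM for WT, 17.6, 19.7 and 21.7 for V, 39.1 and 54.0 for D1, 34.1 for D4, 23.2 and 24.1 for D5, and 28.0 and 29.6 for tVk12653. D1 and D4 lay above all WT and V libraries, while D5 lay within the WT range. Pmvk, the phosphomevalonate kinase, stood at 46.2 and 44.6 CPM in D5 and between 5.05 and 12.0 CPM in every other library. Its VQ change against WT (1.22 ± 0.57, adjusted p = 0.130) did not pass. Fdps, which makes farnesyl diphosphate, was at 1.53 CPM in WT, 4.63 in VQ and rested on 190 counts in all (1.58 ± 0.67, adjusted p = 0.0979). Acat2, which makes acetoacetyl-CoA, Mvk, the mevalonate kinase, and Mvd, the decarboxylase, passed in none of the 7 comparisons. Over the 13 libraries they ranged from 0.489 to 6.85, from 3.12 to 10.9 and from 5.63 to 19.6 CPM.

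From squalene to cholesterol, Sqle was the member that rose in both tumour arms. It encodes squalene epoxidase, a rate-limiting step after mevalonate. Its level was 15.2, 12.3 and 14.6 CPM for WT, 16.6, 21.5 and 13.9 for V, 51.7 and 63.3 for D1, 122 for D4, 55.8 and 45.4 for D5, and 65.5 and 102 for tVk12653. The lowest tumour library stood above the highest V library by a wide margin, and D4 was the highest of all. The log2 fold change against WT was 2.47 ± 0.35 in VQ (5.55-fold, adjusted p = 0.00097) and 2.56 ± 0.37 in tVk12653 (5.90-fold, adjusted p = 0.00153). 

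Of the 10 genes between squalene and cholesterol, 2 rose in VQ (Sqle and Ebp, 20%), beside 17.3% of all genes. In tVk12653 1 rose (Sqle, 10%) and 1 fell (Msmo1, 10%), beside 12.6% and 15.7% of all genes. Msmo1, a sterol C4-methyl oxidase, stood at 21.1, 17.7 and 23.7 CPM for WT, 20.5, 26.4 and 24.7 for V, 21.0 and 13.9 for D1, 34.3 for D4, 27.5 and 16.9 for D5, and 9.26 and 6.49 for tVk12653. Both tVk12653 libraries lay below all others, with a change of -1.41 ± 0.35 against WT (adjusted p = 0.0166) that missed the threshold without WT replicate 3 (0.0547), tVk12653 replicate 1 (0.0673) or tVk12653 replicate 2 (0.140). Ebp was at 51.9, 34.0 and 42.8 CPM for WT and 52.8 and 73.7 for D1, 68.5 for D4 and 46.2 and 55.9 for D5. V (50.3 to 55.9 CPM) and tVk12653 (54.1 and 56.9 CPM) lay within the range of the VQ libraries. The VQ change of 0.56 ± 0.19 (adjusted p = 0.0446) was lost under 20 of its 25 alternatives, among them DESeq2 (adjusted p = 0.0517) and removal of WT replicate 2 (0.152).

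None of the other sterol steps passed in either tumour arm against WT. Fdft1, which makes squalene, stood at 86.5 and 58.5 CPM in D1 and 45.6 in D4, above the 23.5 to 32.3 CPM of the WT and V libraries. Lss, which closes the ring, was at 39.9 and 39.0 CPM in D1 and at most 27.8 CPM elsewhere. Cyp51, which removes the C14 methyl group, was spread within WT itself, at 80.7, 26.4 and 23.1 CPM. Nsdhl, a further demethylation enzyme, was at 9.02 and 18.7 CPM for tVk12653 and 22.1 to 38.1 CPM for WT and V, with a change against V of -1.15 ± 0.38 (adjusted p = 0.0519). Sc5d and Dhcr7, the desaturase and reductase near the end of the pathway, had changes of 0.43 ± 0.18 and -0.16 ± 0.27 in VQ against WT, and neither passed.

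SREBP control genes were given whatever their values. Srebf1, whose protein acts mainly on fatty acid genes, stood between 71.6 and 87.9 CPM for WT, 82.7 and 90.2 for V, 84.8 and 101 for D1, 59.9 for D4, 61.4 and 72.0 for D5, and 77.3 and 66.3 for tVk12653. The arms differed by at most -0.28 ± 0.22 on the log2 scale, for tVk12653 against V. Srebf2 was at 193 to 238 CPM for WT, 193 to 287 for V, 213 and 217 for D1, 192 and 148 for D5, 132 and 185 for tVk12653, and 549 CPM for D4. The D4 level rests on 1 library and has no replicate check. It was the highest of the 13. Sqle, also highest in D4, lies on the same chromosome 15, where 499 genes had a median log2 ratio of D4 to the WT mean, on CPM + 1, of 0.66, beside -0.01 over all genes, a comparison chosen after the values were seen. Of the 10 tested genes nearest Sqle, 8 were highest in D4 among the 13 libraries (median log2 ratio 1.19, beside 3.04 for Sqle), and of the 10 nearest Srebf2, 4 were (0.50, beside 1.38 for Srebf2). By the same ratio, chromosome 5, which holds Insig1, Mvk and Cyp51, had a D4 median of -0.85 over 799 genes. The part of these regional shifts in the members' values was not tested.

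Scap, the SREBP escort, was set apart in D5. Its levels were 59.6, 77.4 and 88.2 CPM for WT, 69.9, 80.6 and 103 for V, 95.6 and 93.2 for D1, 93.7 for D4, 439.9 and 349.7 for D5, and 89.3 and 68.1 for tVk12653. Insig1, which retains the SREBP complex and is itself an SREBP target, stood at 64.4, 41.2 and 62.5 CPM for WT, 50.4, 57.4 and 62.6 for V, 50.1 and 37.9 for D1, 82.2 for D4, 143 and 106 for D5, and 156 and 170.1 for tVk12653. D5, tVk12653 and the single D4 library lay above every WT and V library and D1 did not. Against WT, Insig1 rose in tVk12653 (1.53 ± 0.38, adjusted p = 0.0166), a call lost without WT replicate 2 (0.0573), tVk12653 replicate 1 (0.0652) or tVk12653 replicate 2 (0.0927). In VQ the change was 0.59 ± 0.35 (adjusted p = 0.215).

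Of the sterol-binding members, Tmem97 had the largest increase of any member against WT. It encodes the sigma-2 receptor, an endoplasmic reticulum protein that binds sterols and is an SREBP target. Its level was 1.04, 1.45 and 1.43 CPM for WT, 2.93, 2.82 and 1.62 for V, 14.0 and 16.5 for D1, 14.6 for D4, 45.4 and 51.0 for D5, and 12.3 and 11.2 for tVk12653. The lowest tumour library was above the highest V library, and D5 was above D1 and D4. Against WT the change was 4.35 ± 0.59 in VQ (20.3-fold, adjusted p = 0.000829) and 3.13 ± 0.62 in tVk12653 (8.74-fold, adjusted p = 0.00604). Without line D5 the VQ change was 3.48 (adjusted p = 0.000259). Stard4, which carries sterols between membranes, was at 32.9 and 31.4 CPM for D1, 19.2 and 6.92 for D5, and 9.73 to 16.6 in all other libraries.

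Of the 4 genes of fatty acid synthesis, Acaca, Fasn and Elovl6 rose in VQ against WT, where 17.3% of all genes were higher, and Acaca and Fasn in tVk12653, where 12.6% were. Fasn stood at 136 to 150.1 CPM for WT, 161 to 199 for V, 453 and 528 for D1, 407 for D4, 751 and 863 for D5, and 435 and 429 for tVk12653. No tumour library overlapped WT or V. The change against WT was 2.02 ± 0.25 in VQ (4.05-fold, adjusted p = 0.000544) and 1.56 ± 0.27 in tVk12653 (2.94-fold, adjusted p = 0.00318). Acaca, the carboxylase that makes malonyl-CoA, was at 14.9, 14.8 and 15.4 CPM for WT, 17.6, 17.2 and 18.5 for V, 38.0 and 48.6 for D1, 18.7 for D4, 35.8 and 47.2 for D5, and 37.3 and 41.5 for tVk12653. D4 lay just above V and far below the other tumours. Acaca changed by 1.27 ± 0.32 in VQ (adjusted p = 0.0137) and 1.37 ± 0.35 in tVk12653 (adjusted p = 0.0171), the latter lost without tVk12653 replicate 1 (0.0600) or replicate 2 (0.0933).

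Elovl6 had the widest range of the 4 as a ratio of its highest to its lowest library. Its levels were 18.0 and 31.8 CPM for D1, 33.2 for D4, 135.6 and 117 for D5, and 16.4 and 20.2 for tVk12653, beside the WT and V values given above. The tumour libraries lay above all WT and V libraries, and D5 far above the other tumours. It rose by 3.23 ± 0.69 in VQ against WT (9.36-fold, adjusted p = 0.00699), and by 2.12 without line D5 (adjusted p = 0.00625). In tVk12653 the change of 1.39 ± 0.73 did not pass (adjusted p = 0.182). Acly, which supplies the acetyl-CoA, stood at 337 and 309.9 CPM in D5 and between 126 and 188 CPM in every other library.

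**Figure D3:**
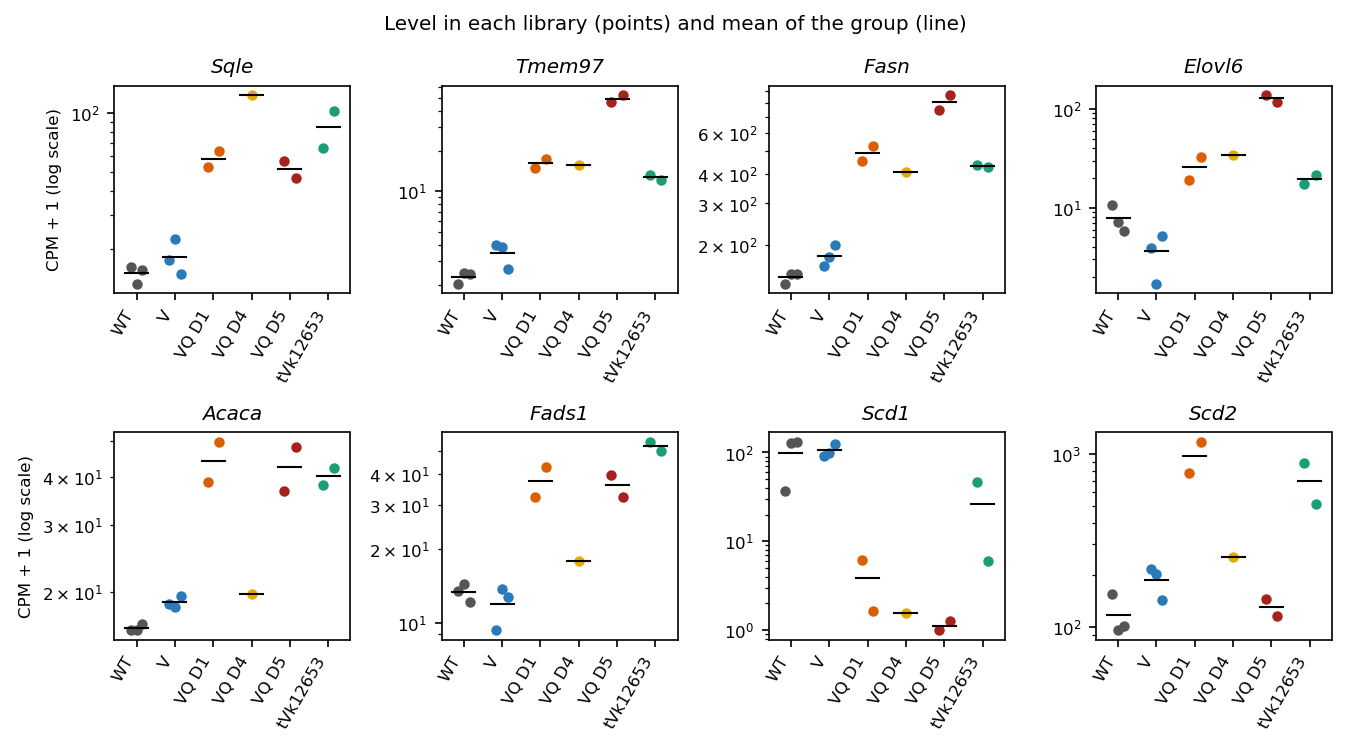
CPM + 1 on a log axis for 8 members, with 1 point per library and a line at the mean of each group. Sqle, Tmem97, Fasn and Elovl6 are higher in every tumour library than in any WT or V library; Acaca and Fads1 are lowest among the tumours in D4, Scd2 is highest in D1 and tVk12653, and Scd1 is at 5.12 CPM or less in the VQ libraries.

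The desaturases split by gene. Scd1 and Scd2 encode stearoyl-CoA desaturases and lie close together on chromosome 19 (Scd2 at 44293676 to 44306864, Scd1 at 44394450 to 44407709, GRCm38.p6). Scd1 stood at 35.7, 126 and 130.4 CPM for WT, 90.0, 98.5 and 125 for V, 5.12 and 0.663 for D1, 0.568 for D4, 0 and 0.256 for D5, and 45.8 and 5.05 for tVk12653. The 5 VQ libraries held 19, 6, 4, 0 and 1 counts of it. The change against WT was -6.57 ± 0.99 in VQ (adjusted p = 0.00143) and -1.93 ± 0.90 in tVk12653 (adjusted p = 0.138). The VQ change was -8.03 without line D1, -7.63 without D1 replicate 1 and -5.89 without D1 replicate 2, and passed in each. Neutrophil marker RNA, given above, was also lower in the tumour libraries, and its part in the Scd1 values was not tested.

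Scd2 stood at 154, 95.1 and 101 CPM for WT, 217, 201 and 142 for V, 773 and 1171 for D1, 252 for D4, 144 and 115 for D5, and 888 and 511 for tVk12653. D1 and tVk12653 were high, and D5 lay within the WT range. The VQ change against WT, 2.06 ± 0.66 (adjusted p = 0.0372), became 0.69 without line D1 (adjusted p = 0.162) and was lost under 12 of its 25 alternatives, among them leaving out any WT library (0.0679 to 0.121), V library (0.0520 to 0.0541) or tVk12653 library (0.0532 and 0.0539). In tVk12653 the change was 2.57 ± 0.71 (5.93-fold, adjusted p = 0.0248), lost without WT replicate 2 (0.0785), WT replicate 3 (0.0751), tVk12653 replicate 1 (0.133) or tVk12653 replicate 2 (0.0642). Of the reads on both genes, Scd2 held 81.2% (exact 95% interval 77.6 to 84.4), 43.0% (39.0 to 47.0) and 43.6% (40.2 to 47.1) in WT and 70.7%, 67.1% and 53.3% in V. It held 99.3 to 100% in the VQ libraries and 95.1% (94.4 to 95.7) and 99.0% (98.4 to 99.5) in tVk12653. The intervals cover counting error only, and because the genes are close copies of each other, how the authors' counting split their shared reads is not known.

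Fads1 and Fads2, the delta-5 and delta-6 desaturases of polyunsaturated fatty acids, are also neighbours on chromosome 19. Fads1 stood at 12.5, 13.4 and 11.1 CPM for WT, 8.31, 12.7 and 11.7 for V, 31.2 and 41.9 for D1, 16.7 for D4, 39.0 and 31.3 for D5, and 53.2 and 49.0 for tVk12653. All tumour libraries lay above WT and V, D4 by the least. The change against WT was 1.33 ± 0.33 in VQ (adjusted p = 0.0132, and 0.0566 without WT replicate 3) and 2.04 ± 0.36 in tVk12653 (4.10-fold, adjusted p = 0.00364). Fads2 went another way, at 22.9, 19.2 and 49.9 CPM for WT, 21.5, 11.3 and 17.2 for V, 1.35 and 1.10 for D1, 2.84 for D4, 43.5 and 22.6 for D5, and 16.7 and 27.8 for tVk12653. D1 and D4 were low and the rest overlapped, so the mean of the VQ lines (-1.26 ± 0.99, adjusted p = 0.352) stands for none of them.

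Beside V, which carries the same MYC transgene and Cre as VQ, 7 members were higher in VQ and 1 lower (25.8%), where 28.0% of all genes were called, 15.6% higher and 12.4% lower. They were Hmgcs1 (0.88 ± 0.29), Sqle (2.16 ± 0.34), Tmem97 (3.46 ± 0.56), Acaca (1.02 ± 0.32), Fasn (1.72 ± 0.25), Elovl6 (4.61 ± 0.77) and Fads1 (1.50 ± 0.33), and Scd1 (-6.67 ± 0.99). Elovl6 was 24.4-fold higher, above its ratio to WT because its V level was below the WT level. Leaving out line D5 moved Elovl6 to 3.49 and Tmem97 to 2.59, leaving out V replicate 3 moved Elovl6 to 5.20, and leaving out line D1, D1 replicate 1 or D1 replicate 2 moved Scd1 to -8.15, -7.74 or -6.00; all stayed past the threshold. The calls of Hmgcs1 (adjusted p = 0.0458) and Acaca (0.0365) were lost when any V library was left out (0.0954 to 0.131), without line D1 (0.167 and 0.104), and without any WT or tVk12653 library (0.0515 to 0.0809, except that Hmgcs1 passed without WT replicate 2). Acaca was also lost without line D5 (0.0745), and Hmgcs1 without D1 replicate 2 (0.0584) or D5 replicate 2 (0.0537). With 1 mean per group the fit of 13 libraries called 13 higher and 4 lower, and with the 2 groups alone 4 higher and 1 lower.

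tVk12653 against V gave 7 members higher and 1 lower (25.8%), beside 23.2% of all genes, 10.3% higher and 12.9% lower. Sqle (2.25 ± 0.37), Insig1 (1.50 ± 0.38), Tmem97 (2.24 ± 0.59), Acaca (1.13 ± 0.35), Fasn (1.25 ± 0.27), Elovl6 (2.77 ± 0.79) and Fads1 (2.21 ± 0.36) rose and Msmo1 (-1.61 ± 0.35) fell. With any V library left out the higher count was 3, and without either tVk12653 library it was 2 and the lower count 0. Acaca was lost without any WT library as well (0.0542 to 0.0609). Sqle and Fads1 passed in all of these. The tumour arms share the V libraries in these comparisons.

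VQ and tVk12653 differed in 2 members. Msmo1 was higher in VQ (1.63 ± 0.35, adjusted p = 0.0202) and Scd1 was lower (-4.64 ± 0.98, adjusted p = 0.0191), which is 6.45% of the members, beside 10.2% of all genes (5.97% higher, 4.19% lower). Both calls were lost without tVk12653 replicate 1, where Msmo1 was at 1.87 (adjusted p = 0.114) and Scd1 at -2.36 (0.298). Without tVk12653 replicate 2 Msmo1 was lost (1.38, 0.201), and without D1 replicate 2 Scd1 was lost (-3.96, 0.0553). Scd1 passed without tVk12653 replicate 2 (-5.52), D1 replicate 1 (-5.70) or line D1 (-6.12). Sqle, Fasn and Acaca did not pass between these arms.

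D1 against D5 compares recipients of 1 VQ line with those of another, so its p-values rest on the spread between recipients that share a tumour. Of the 31 members, 7 were higher in D1 and 8 lower (48.4%), beside 41.7% of 12835 genes, with 2568 higher and 2783 (21.7%) lower. The sterol side divided: Hmgcs1 (0.98 ± 0.24), Fdft1 (1.60 ± 0.24), Lss (0.76 ± 0.25), Hsd17b7 and Stard4 (1.29 ± 0.36) were higher in D1, and Pmvk (-1.98 ± 0.27) and Tmem97 (-1.66 ± 0.27) higher in D5. Among control genes Srebf1 (0.48 ± 0.16) was higher in D1, and Scap (-2.07 ± 0.21) and Insig1 (-1.52 ± 0.22) were higher in D5. On the fatty acid side Acly (-1.04 ± 0.16), Fasn (-0.72 ± 0.14), Elovl6 (-2.32 ± 0.34) and Fads2 (-4.77 ± 0.61) were higher in D5, and Scd2 (2.90 ± 0.35, 7.48-fold) was higher in D1. Scd2 and Scap lay on opposite sides, at 972 and 94.4 CPM for D1 and 129.5 and 395 CPM for D5.

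Of these calls, Hmgcs1 was lost without D1 replicate 2 (adjusted p = 0.0657), Srebf1 without D1 replicate 2 (0.166) or D5 replicate 1 (0.176), and Lss without any of the 4 libraries (0.0664 to 0.138). Stard4 was lost without D5 replicate 2 (0.73, adjusted p = 0.111) and stood at 2.20 without D5 replicate 1. The higher count was 4 without D1 replicate 2. All 8 members higher in D5 passed whichever library of D1 or D5 was left out. D1 replicate 1 held the highest neutrophil marker sum among the tumours.

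Hsd17b7, a reductase of sterol demethylation, had 0 counts in both D5 libraries, where 3 counts would be 0.801 and 0.769 CPM. It stood at 9.97 and 15.2 CPM for D1, 9.79 for D4, 6.23, 8.68 and 5.99 for WT, 3.91, 6.33 and 7.79 for V, and 13.9 and 7.57 for tVk12653. Set against the mean of these floors, D1 was at least 16.1-fold higher, WT at least 8.88-fold and V at least 7.66-fold. Hsd17b7 lies on chromosome 1 (169949535 to 169969242). Its neighbours Uap1 and Nuf2 had reads in D5, at 63.3 and 74.3 CPM and at 83.3 and 88.2 CPM. These neighbours were named after their values were seen.

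**Figure D4:**
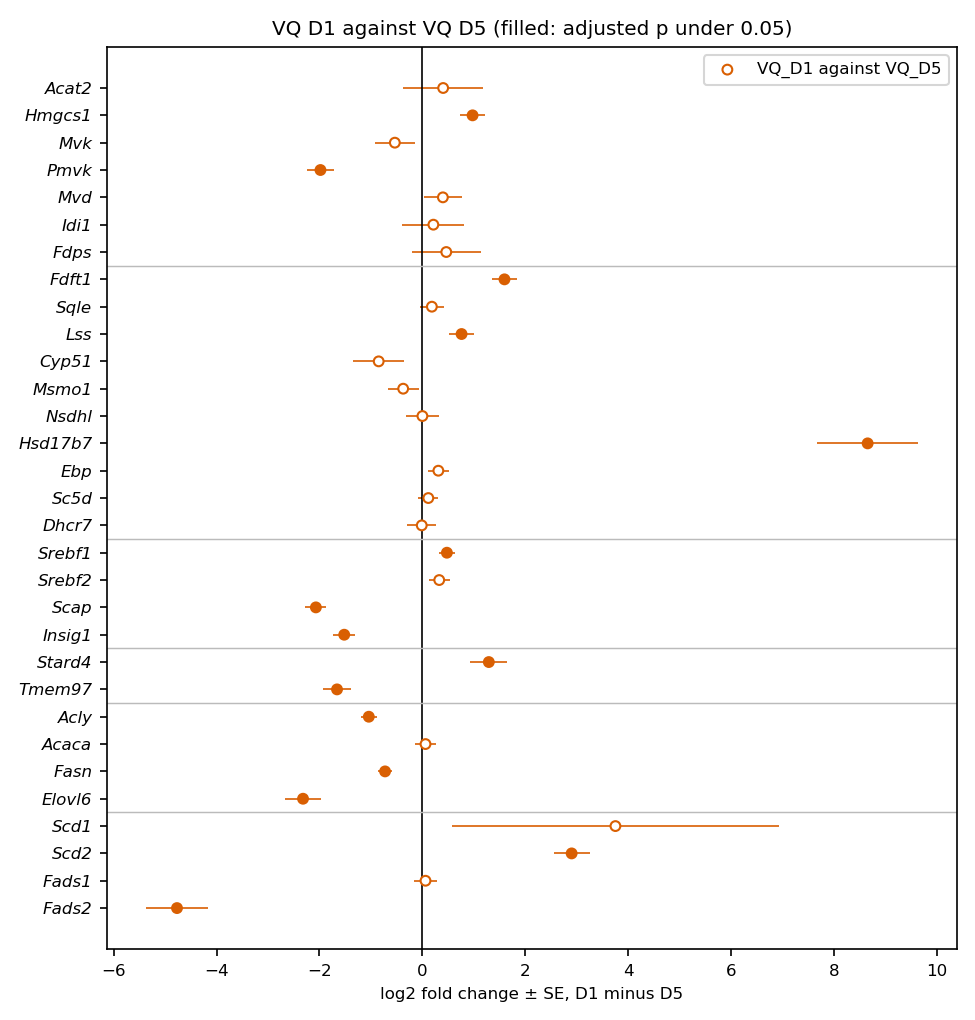
Log2 fold change (x axis) ± standard error of each member, D1 minus D5, from the fit of 13 libraries; filled points had an adjusted p under 0.05. Fads2, Elovl6, Scap and Pmvk lie to the left (higher in D5), and Scd2 and Fdft1 to the right; the place of Hsd17b7 depends on the prior count because both D5 libraries are at 0.

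On some chromosomes, named after their values were seen, genes differed between D1 and D5 as a whole. The median log2 fold change was -0.83 over 799 genes of chromosome 5, which holds Insig1, Mvk and Cyp51, -0.67 over 679 genes of chromosome 8, which holds Mvd and Msmo1, and -0.41 over 596 genes of chromosome 3, which holds Pmvk, Fdps and Elovl6. Over all genes it was 0.05. The 10 tested genes nearest Insig1 had a median of -1.20, beside its own -1.52. Those nearest Pmvk had -0.47 and those nearest Elovl6 0.27, beside -1.98 and -2.32. Around Scap, on chromosome 9 (110333288 to 110384949), the 10 neighbours had a median of 0.37 and its adjoining gene Ptpn23 0.24, beside -2.07 for Scap. The neighbours of Fads1 and Fads2 had -0.93 and -0.91, beside 0.06 for Fads1 and -4.77 for Fads2. Those neighbour sets are mostly the same genes, and each holds the other Fads gene. The part of these regional differences in the members' values was not tested.

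Other genes of lipid metabolism, from lists drawn up with the members, gave the surroundings. The shares of all genes called, against which their counts are set, were 32.4% in VQ against WT, 28.2% in tVk12653 against WT and 41.7% between D1 and D5. Of 9 further SREBP regulators 2 rose in each tumour arm against WT (22.2%) and 0 fell: Mbtps2, the protease of the second SREBP cleavage (1.18 ± 0.26 in VQ, 1.20 ± 0.28 in tVk12653), and Rnf145, a ubiquitin ligase for SCAP (0.67 ± 0.20 and 1.31 ± 0.22). Between D1 and D5, 2 of the 9 were higher in D1 and 5 in D5 (77.8% called, beside 41.7% of all genes), among the latter Mbtps1, the protease of the other cleavage (-1.78 ± 0.14). Of 13 genes of the isoprenoid branches 4 rose and 0 fell in VQ (30.8%), and 1 rose and 2 fell in tVk12653 (23.1%). Rabggta, a subunit of Rab geranylgeranyl transferase, rose in VQ (1.98 ± 0.30) and fell in tVk12653 (-1.07 ± 0.35).

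Sterol export and uptake genes moved in both directions. Of 11 tested LXR targets and efflux genes, 2 rose and 3 fell in VQ against WT (45.5%, beside 32.4% of all genes), among the latter Mylip (-1.93 ± 0.25), a ligase that degrades lipoprotein receptors, and Apoe (-2.08 ± 0.47), a lipoprotein component that macrophages make in quantity. In D1 the cholesterol exporters Abca1 (501 against 84.1 CPM, 2.57 ± 0.41) and Abcg1 (147 against 11.6 CPM, 3.65 ± 0.48) were higher than in D5; monocyte and macrophage markers summed to 657.5 to 778 CPM for D1, of which Ly6c2 held 501 and 654, and to 21.6 to 44.6 CPM for D5, and their part was not tested. Of 9 uptake and lysosomal genes, 1 rose and 0 fell in VQ (11.1%), and between the lines 4 were higher in D1 and 2 in D5 (66.7%, beside 41.7% of all genes). Scarb1, the HDL receptor (-4.85 ± 0.67), and Lrp8, a lipoprotein receptor (-2.67 ± 0.35), were higher in D5.

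Of 18 tested further genes of fatty acid synthesis and elongation, 3 rose and 3 fell in VQ (33.3%, beside 32.4% of all genes) and 3 rose and 1 fell in tVk12653 (22.2%, beside 28.2%). Hsd17b12, the ketoacyl reductase of the elongation cycle that Elovl6 starts, rose in both (2.36 ± 0.24 and 1.26 ± 0.26). Mecr, the mitochondrial enoyl reductase, rose in VQ (1.94 ± 0.34). Acss1, the mitochondrial acetyl-CoA synthetase, fell in VQ (-2.79 ± 0.65), and Acss2, its cytosolic relative, rose in tVk12653 (1.42 ± 0.39) and was higher in D1 than in D5 (1.57 ± 0.18). Of 22 genes of fatty acid activation and phospholipid synthesis, 4 rose and 3 fell in VQ and 2 rose and 5 fell in tVk12653, 31.8% in each, beside 32.4% and 28.2% of all genes. Acsl1, which activates fatty acids, fell in both (-2.25 ± 0.32 and -4.07 ± 0.44). Of 10 tested oxidation genes, 1 rose and 1 fell in VQ (20%) and 4 rose in tVk12653 (40%, beside 28.2%), where Acadl, the long-chain acyl-CoA dehydrogenase, stood at 198 against 93.9 CPM in WT (1.06 ± 0.28).

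The genes most like the 17 mevalonate and squalene-to-cholesterol members were sought among 8966 others by Pearson correlation over the 13 libraries, which share the differences between groups, with the mean of the members' standardised log2 levels. They were Slc35b1 (r = 0.926), Sh3bgrl2 (0.924), Exoc5 (0.914), Gmds (0.911), Cs (0.907), Entpd1 (0.902), Eaf2 (0.888), Hddc2 (0.887), Tmem259 (0.885) and Fbxw11 (0.882). The mean standardised level itself was -0.68 to -0.01 for WT, -0.37 to -0.02 for V, 0.50 and 0.65 for D1, 0.64 for D4, 0.24 and -0.11 for D5, and -0.22 and -0.25 for tVk12653. D1 and D4 thus lay above all WT and V libraries, while D5 replicate 2 and both tVk12653 libraries lay within their range.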

How the data were processed

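Per the labels' protocols, RNA came from an RNeasy Micro kit, and the 13 libraries from a stranded SMARTer kit for picogram input. STAR 2.6.1d and GRCm38.p6 are named in the submitters' processing notes. The authors deposited raw read counts per gene symbol, without normalization; the counter, its annotation and strand setting, and its rule for multiply aligned reads are items not given in the sources used here.

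Members and gene lists were chosen with earlier results of these data known. Counts were scaled by trimmed means (TMM), filtered with filterByExpr (minimum count 10, total 15) and tested with edgeR 4.0.16 quasi-likelihood fits (R 4.3.3); p-values were adjusted over all tested genes after Benjamini and Hochberg, and 0.05 was the threshold. Arms were tested over 11 units, with the recipients of a VQ line summed, and D1 against D5 over 13 libraries with a mean per group. CPM of single libraries uses scaling over the 13 libraries and that of arms scaling over the units, so values differ slightly. TPM used exon lengths of GENCODE vM21, found for 21756 symbols. RefSeq positions matched 22000 symbols.

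Named with full values were members passing in any comparison and the SREBP control genes, and of each further list at most 3 called genes per comparison, the largest changes with a mean log2 CPM of at least 3. Alternatives were other size factors, no or a stricter low count filter (30 counts), DESeq2 1.42.0, the 2 groups compared alone, a mean for each arm or each group over 13 libraries, a replicate block, dropping the 20 genes with most counts, and leaving out each library or line. Leaving out WT replicate 2 and D1 replicate 1 together was added after seeing the data. Deviations from group means of same-numbered WT and V libraries correlated at 0.209, 0.182 and 0.147, and of other WT and V pairs at -0.16 to -0.055. Deviations within a group cancel out, so these correlations are not independent of each other. Between all other groups they lay between -0.126 and 0.126. The labels do not say what the number marks, so a pairing of WT with V was not established. Total counts of 2096815 to 8512281 make 3 counts equal 0.331 to 1.47 CPM. Libraries of a group differed by more than counting error, at a chi-square per degree of freedom of 4.97 to 14.4. None was thus the same library counted again. The value cannot tell separate libraries of the same animal from libraries of different animals.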

Additional observations from a re-analysis of the deposited data

Results flagged for a closer look

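Several members had a tested difference between lines or arms whose changes against WT were of opposite sign, whatever the size of those changes. Between D1 and D5, in edgeR's test, these were Hmgcs1 (log2 difference 0.98, adjusted p = 0.00438), Fdft1 (1.60, 0.000101), Srebf1 (0.48, 0.0234) and Stard4 (1.29, 0.0103), higher in D1. Insig1 (-1.52, 6.75e-05), Acly (-1.04, 0.00011) and Fads2 (-4.77, 4.64e-05) were higher in D5. For some of these a line's mean lay close to the WT mean, so that its sign says little. Examples are Hmgcs1 in D5 (23.7 beside 25.1 CPM for WT) and Stard4 in D5 (13.1 beside 13.5). Acly in D1 (157.7 beside 161.3) and Fads2 in D5 (33.0 beside 30.7) are others. Hsd17b7 was fitted at 8.66 (1.4e-05), a value that depends on the prior count because both D5 libraries held 0 counts. Msmo1 differed between VQ and tVk12653 (1.63, 0.0202). No group had the 4 libraries that a check for a single outlying library needs.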

How the results depend on the processing

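Over 51 gene results and their 1064 alternatives, 931 kept direction and side of the threshold, 133 kept direction but missed it and 0 reversed; 27 of the 51 passed in all. In VQ against WT, 4 members were higher with the 2 groups alone and 15 with a mean per group, which also gave 3 lower, as did the replicate block in that fit. VQ against V gave 4 higher with the 2 groups alone, 13 higher and 4 lower per group, 11 higher and 4 lower with the block, and 2 lower with 13 libraries per arm. In tVk12653 against WT, 4 were higher without WT replicate 2 and D1 replicate 1, and 2 lower per group or with the block. In tVk12653 against V, 2 were lower with DESeq2 and with 13 libraries per arm, 3 with the 2 groups alone, 4 per group and 3 with the block. VQ against tVk12653 gave 2 higher with DESeq2, 0 higher and 0 lower with the 2 groups alone, 9 and 6 per group, 8 and 6 with the block, and 0 lower with no low count filter. The block in V and WT alone called 1 higher (Scd2). The cause of these moves was not tested. Leaving out a library or line gave 5 to 11 higher and 1 to 2 lower in VQ against WT, 5 to 8 and 1 to 2 in VQ against V, 4 to 8 and 0 to 1 in tVk12653 against WT, 2 to 8 and 0 to 2 in tVk12653 against V, 0 to 2 and 0 to 3 in VQ against tVk12653, 4 to 6 and 8 in D1 against D5, and 0 in V against WT. With a tVk12653 library left out the remaining one is assumed to vary like the other groups. Other size factors moved the median of all genes by at most 0.074 on the log2 scale. At these depths members such as Idi1, Fdps and Acat2, with 173 to 191 counts over all libraries, gave little precision.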
